A study of Homo sapiens with 6 samples.

Results

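A microRNA (miRNA) host gene is a longer gene whose transcript carries the hairpin of 1 or more miRNAs, and the genes described here are the noncoding hosts whose symbol starts with MIR and ends with HG. They were chosen by this name alone, after the Ensembl identifiers of the deposited table had been matched to the symbols of GENCODE release 44. The rule found 49 of the 28563 genes in the table, spread over 19 chromosomes. HepG2, an established line of human liver cancer cells, was given Polydatin (PD), a plant compound, at the 336 µM stated in the labels, or DMSO, its solvent. The study's methods give a somewhat lower dose of PD than the labels. Plates were assigned at random to PD or DMSO, 3 per group, and RNA was taken after 24 h, with 1 library per plate. All 6 plates were therefore of 1 cell line with no genetic change named, and p-values measure the spread between plates. Poly(A) RNA was sequenced, and the values are FPKM, fragments scaled by the length of the gene and the depth of the library.

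Host transcripts are mostly made by RNA polymerase II. In the nucleus the enzyme DROSHA with its partner DGCR8 cuts the hairpin out of the transcript, exportin 5 (XPO5) carries it out, DICER1 trims it, and an Argonaute (AGO) protein takes up 1 strand as the mature miRNA. The bases next to the 5′ end of that strand, the seed, pair with target mRNAs. What a poly(A) library holds is the uncut or spliced host RNA and not the mature miRNA, so none of the values given here is a level of a miRNA. In bulk RNA, fewer cells that express a host and less host RNA per cell cannot be told apart.

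The DMSO libraries held 16763318 to 17274927 fragments and the PD libraries 16308476 to 18071632, as worked back from the FPKM, so the groups had a like depth. Among the hosts that averaged 0.5 FPKM or more, a gene had 2 to 822 fragments in a library, and counting error is large at the low end. The cells were checked against markers of their labelled type. Of 20 hepatocyte genes listed, 10 were analysed here, and 2 of these reached 1 FPKM in any library, namely CPS1, an enzyme of the urea cycle, and RBP4, a retinol carrier. HNF4A, a master regulator of hepatocytes, was between 0.016 and 0.106 FPKM, while TF, SERPINA1, FGA and FGG all had means under 0.1 FPKM in both groups. The summed level of the 10 genes was 222 to 229 FPKM in DMSO and 107 to 113 FPKM in PD, nearly all of it from CPS1. Of the 4 epithelial markers analysed, KRT8 and KRT18 were at 45.6 to 70.5 FPKM, EPCAM at 0.882 to 1.54 FPKM and CDH1 at 0.0269 to 0.145 FPKM. Of the 4 mesenchymal markers, VIM was at 20.3 to 30.0 FPKM, COL1A1 at 3.07 to 3.78 FPKM, PDGFRB at 0.819 to 1.15 FPKM and DCN at 0.362 to 0.532 FPKM. The endothelial and blood markers analysed were under 0.1 FPKM in every library. The other 10 hepatocyte genes, among them ALB, AFP, APOB and TTR, had no row among the values used here and could not be analysed. Whether a missing row means that a gene had no fragments could not be checked. Most of the hepatocyte markers analysed were near 0 and do not bear out the label. The name HepG2 is used only as the labels give it.

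In GENCODE 44 every one of the 49 hosts holds a miRNA gene within its span and on its strand, 84 in all, of which 45 lie in an exon of the host, 35 in an intron and 4 across an exon edge. Sequences were taken from RefSeq on GRCh38.p14, where 39 of the hosts matched, with 72 hairpins. The mature sequences below are those of the let-7 family, whose seed was found in 6 hosts, and of other hosts that fell or rose with PD. They are written 5′ to 3′, with the seed (bases 2 to 8) in capitals. The let-7 family and the miR-100 and miR-125 families come from MIR100HG, MIRLET7BHG, MIR99AHG, MIRLET7IHG, MIRLET7A1HG and, for miR-4500, MIR4500HG:
let-7a-5p: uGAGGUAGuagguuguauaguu
let-7b-5p: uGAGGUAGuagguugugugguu
let-7c-5p: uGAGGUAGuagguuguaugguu
let-7i-5p: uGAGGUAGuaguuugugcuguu
miR-4500: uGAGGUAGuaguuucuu
miR-100-5p: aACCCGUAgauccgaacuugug
miR-99a-5p: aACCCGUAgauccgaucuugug
miR-125b-5p: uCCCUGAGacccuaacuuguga

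The miR-17-92 cluster of MIR17HG holds 6 hairpins on 1 transcript, whose main arms fall into 4 seeds, and all of these are shown because they share a transcript that fell:
miR-17-5p: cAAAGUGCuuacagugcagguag
miR-20a-5p: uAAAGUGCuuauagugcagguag
miR-18a-5p: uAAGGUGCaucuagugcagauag
miR-19a-3p: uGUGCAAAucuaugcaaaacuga
miR-19b-3p: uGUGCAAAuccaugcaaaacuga
miR-92a-3p: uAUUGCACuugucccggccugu

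The other hosts that stood out carry miRNAs with seeds of their own. MIR23AHG carries miR-23a, miR-27a and miR-24, MIR34AHG carries miR-34a, MIR193BHG carries miR-193b and miR-365a, MIR181A2HG carries miR-181a, and MIR3677HG carries miR-3677 and miR-940:
miR-23a-3p: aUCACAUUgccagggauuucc
miR-27a-3p: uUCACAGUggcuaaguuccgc
miR-24-3p: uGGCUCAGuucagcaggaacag
miR-34a-5p: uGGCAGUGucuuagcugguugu
miR-193b-3p: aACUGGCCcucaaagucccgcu
miR-365a-3p: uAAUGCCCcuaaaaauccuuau
miR-181a-5p: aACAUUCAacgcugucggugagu
miR-3677-3p: cUCGUGGGcucuggccacggcc
miR-940: aAGGCAGGgcccccgcucccc

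To see whether PD changed the level of the host transcripts, the 21 hosts averaging 0.5 FPKM or more were tested with limma on log2(FPKM + 1), together with every other gene at that level, 14400 in all, over which the Benjamini-Hochberg adjustment was made. With the threshold set at 0.05 for the adjusted p (limma), 12 of the 21 fell (57.1%), 1 rose (4.76%) and 8 did not pass, so that 61.9% of them were called against 58.1% of all tested genes. Of all tested genes 26.2% fell and 31.9% rose, and of the 1588 tested lncRNA genes 29.4% fell and 11% rose. The median log2 fold change of the hosts was -0.28, against 0.01 over all tested genes and -0.17 over the lncRNA genes. The PD libraries lay entirely below the DMSO libraries for 13 hosts and entirely above them for 2, while 6 overlapped. Over all tested genes the groups were apart in 65.4%, with PD below in 29.9% and above in 35.6%. The 12 hosts that fell kept between 24.3% and 82.5% of their mean FPKM in DMSO. The summed level of the 21 hosts was 69.8, 66.3 and 66.9 FPKM in the DMSO libraries and 45.7, 47.9 and 48.9 FPKM in the PD libraries, which do not overlap.

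Because the pseudocount hides part of the change of low genes, limma voom was also run on whole fragments worked back from the FPKM, with 25 hosts and 15068 genes in all. There 16 hosts fell, 3 of them under 0.5 FPKM, and 1 rose at an adjusted p of 0.05 (limma), while 62.7% of all genes tested this way were called and 28.3% fell. At 2-fold or more, 6 hosts fell, of which MIR100HG, MIR193BHG, MIR17HG and MIR181A2HG were the 4 that averaged 0.5 FPKM or more. Of all genes 11.5% were called at 2-fold in this test and 4.8% were lower.

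**Figure D1:**
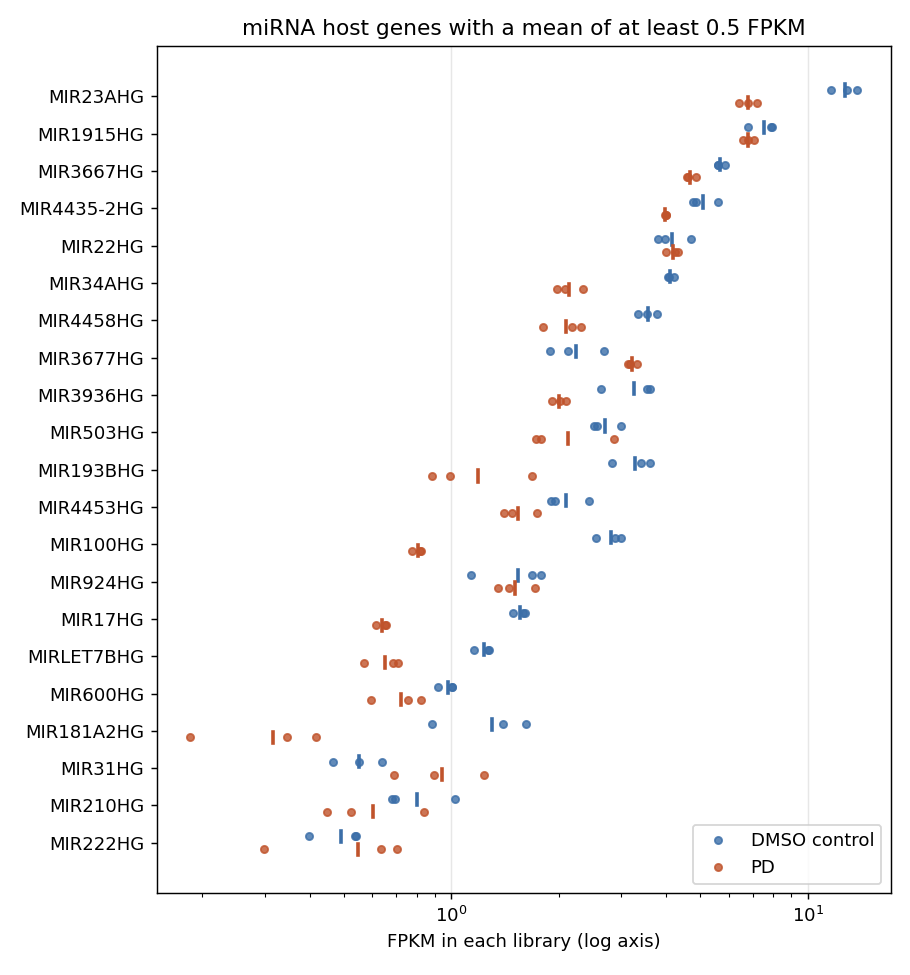
FPKM of the 21 tested host genes, on a log axis, with 1 point per library (3 DMSO and 3 PD) and a vertical bar at each group mean. The PD points lie left of all DMSO points for 13 genes and right of them for MIR3677HG and MIR31HG.

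MIR100HG had the largest fall on the log2(FPKM + 1) scale among the hosts. This gene, ENSG00000255248, spans chr11:122028325-122556721 on the minus strand and holds the hairpins of miR-125b-1, let-7a-2, miR-10526 and miR-100 in its introns. Its level was 3.0, 2.87 and 2.54 FPKM in DMSO and 0.814, 0.777 and 0.824 FPKM in PD. The PD libraries lay close together, at 28.7% of the DMSO mean, and far from the DMSO range. The log2 fold change was -1.07 (standard error, SE, 0.08, adjusted p = 2.76e-05 by limma). It was the 1 host called at 2-fold or more on this scale, where 3.61% of all tested genes were called and 1.57% were lower. The pseudocount of 1 FPKM holds back the change of genes this low, and limma voom on the fragments, 478 to 570 in DMSO against 148 to 162 in PD, gave -1.79.

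MIRLET7BHG, on the plus strand of chr22:46053869-46113928, carries let-7a-3 and let-7b in its exons, together with miR-4763, and miR-3619 in an intron. It had 1.26, 1.16 and 1.28 FPKM in DMSO and 0.686, 0.568 and 0.707 FPKM in PD. The groups did not overlap, and the log2 fold change was -0.43 (SE 0.09, adjusted p = 0.0036 by limma). Its first bases lie 164 bp from the start of PRR34-AS1 on the same strand and share exon sequence with it. PRR34-AS1 had means of 0.822 FPKM in DMSO and 0.749 FPKM in PD, with an adjusted p of 0.775 (limma).

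The other hosts of the let-7 seed had means under 0.5 FPKM, and their values follow. MIR99AHG, which carries let-7c, miR-99a and miR-125b-2, had 0.628, 0.667 and 0.616 FPKM in DMSO and 0.251, 0.305 and 0.308 FPKM in PD. MIRLET7IHG, which carries let-7i, had 0.599, 0.439 and 0.370 FPKM in DMSO and 0.121, 0.0984 and 0.162 FPKM in PD. MIRLET7A1HG, which carries let-7a-1, let-7f-1 and let-7d in its exons, had 0.363, 0.333 and 0.244 FPKM in DMSO and 0.0771, 0.238 and 0.128 FPKM in PD. In these 3 hosts every PD library was below every DMSO library, although for MIRLET7A1HG the gap between 0.238 and 0.244 FPKM was small and rested on 6 fragments on either side. MIR4500HG, whose miR-4500 shares the seed GAGGUAG, had 0.0714 to 0.328 FPKM in DMSO and 0.169 to 0.262 FPKM in PD, and its groups overlapped. Of the 6 hosts with this seed, 5 were therefore lower in PD without overlap and 1 was not. PD was lower without overlap in 29.9% of the tested genes, such as MIR100HG and MIRLET7BHG, and in 8.52% of the 14163 genes under 0.5 FPKM, such as the other 4. Between 13468 and 13858 genes of the table had under 10 fragments in a library. In DMSO, MIR99AHG had 65 to 69 fragments in a library and MIRLET7IHG 55 to 90, so the 8.52% is not a share at like depth for them. MIR100HG and MIR99AHG also share the seed ACCCGUA of miR-100-5p and miR-99a-5p, and they kept 28.7% and 45.2% of their DMSO means.

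**Figure D2:**
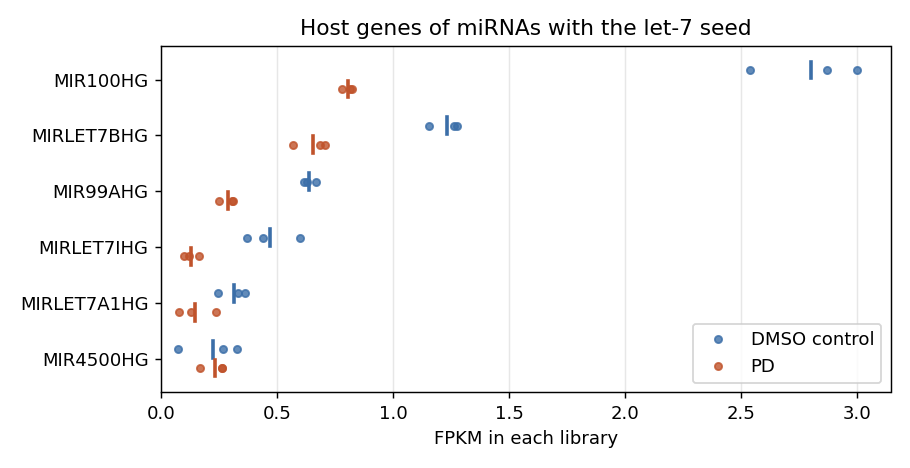
FPKM of the 6 host genes whose miRNAs have the let-7 seed GAGGUAG, with 1 point per library (3 DMSO and 3 PD) and a vertical bar at each group mean. The PD points lie left of all DMSO points in 5 genes, and the groups overlap for MIR4500HG.

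MIR17HG, the host of the miR-17-92 cluster known as a target of MYC in growing cells, fell as well. It spans chr13:91347686-91397592 on the plus strand, and its 6 hairpins lie in exon sequence between 91350605 and 91351391. It had 1.59, 1.49 and 1.61 FPKM in DMSO and 0.650, 0.653 and 0.615 FPKM in PD. The groups were tight and apart, with PD at 40.9% of the DMSO mean. The log2 fold change was -0.64 (SE 0.08, adjusted p = 0.00032 by limma), and voom, which had 87 to 96 fragments in each DMSO library and 35 to 41 in each PD library, gave -1.28. MYC itself, a transcription factor of cell growth, had 196, 235 and 219 FPKM in DMSO and 123, 103 and 109 FPKM in PD, a log2 fold change of -0.95 with an adjusted p of 6.71e-05 (limma). Whether the fall of MYC had a part in that of MIR17HG was not tested.

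MIR23AHG was the host with the highest level per length. It lies at chr19:13823880-13842928 on the minus strand and carries miR-23a, miR-27a and miR-24-2 in exon sequence. Its level was 12.9, 11.6 and 13.8 FPKM in DMSO and 6.39, 6.78 and 7.18 FPKM in PD, 53.2% of the DMSO mean. The groups were apart by more than either spread, and the log2 fold change was -0.82 (SE 0.07, adjusted p = 6.19e-05 by limma). In GENCODE 44 its exon, 19049 bp long, meets those of ZSWIM4 on the other strand. The FPKM imply that 1844 bp were counted, which may not reach ZSWIM4. The library kit does not mark strand, so fragments of any shared stretch cannot be told apart. ZSWIM4 had means of 7.17 FPKM in DMSO and 6.17 FPKM in PD, a log2 fold change of -0.19 with an adjusted p of 0.0636 (limma).

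MIR34AHG, at chr1:9148011-9198906 on the minus strand, carries miR-34a, a miRNA known for slowing cell division, in an exon. It had 4.20, 4.06 and 4.07 FPKM in DMSO and 1.97, 2.35 and 2.08 FPKM in PD. PD kept 51.9% of the DMSO mean with no overlap, a log2 fold change of -0.71 (SE 0.06, adjusted p = 8.55e-05 by limma). The exons of MIR34AHG also meet those of an antisense gene, LNCTAM34A.

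MIR193BHG, at chr16:14301389-14331067 on the plus strand, carries miR-193b and miR-365a in its introns. It had 3.62, 2.83 and 3.40 FPKM in DMSO and 0.994, 1.68 and 0.881 FPKM in PD. The second PD library was the highest of its group, yet it was below all DMSO libraries. The log2 fold change was -0.98 (SE 0.15, adjusted p = 0.00089 by limma), and voom gave -1.50. No exon of another gene in GENCODE 44 overlaps an exon of this host.

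MIR181A2HG, at chr9:124658412-124698635 on the plus strand, carries miR-181a-2 and miR-181b-2 in introns. It had 1.40, 1.62 and 0.883 FPKM in DMSO and 0.418, 0.345 and 0.185 FPKM in PD, 24.3% of the DMSO mean and the lowest share of any host that fell. The log2 fold change was -0.80 (SE 0.15, adjusted p = 0.0026 by limma). These values came from 10 to 18 fragments in a DMSO library and 2 to 5 in a PD library, so the direction held in every library while the size is imprecise, and voom gave -1.91.

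The other 5 hosts that fell are MIR4458HG, MIR3936HG, MIR3667HG, MIR4435-2HG and MIR4453HG. MIR4458HG had 3.78, 3.55 and 3.34 FPKM in DMSO and 1.81, 2.18 and 2.32 FPKM in PD, a log2 fold change of -0.56 with an adjusted p of 0.00084 (limma). MIR3936HG had 2.63, 3.53 and 3.6 FPKM in DMSO and 1.92, 2.1 and 2.02 FPKM in PD, a log2 fold change of -0.49 with an adjusted p of 0.0043 (limma). In both hosts the lowest DMSO library stayed above the highest PD library. The exons of MIR3936HG also meet those of SLC22A4 and SLC22A5 on the other strand.

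MIR3667HG had 5.60, 5.84 and 5.60 FPKM in DMSO and 4.61, 4.58 and 4.86 FPKM in PD, with a log2 fold change of -0.23, the smallest of any host that fell, and an adjusted p of 0.0047 (limma). MIR4435-2HG, a spliced lncRNA studied in cancer cells, had 5.60, 4.84 and 4.77 FPKM in DMSO and 4.0, 3.97 and 4.0 FPKM in PD, with a log2 fold change of -0.28 and an adjusted p of 0.0075 (limma). It has a near-identical copy, CYTOR, and its exons meet those of BCL2L11, so its fragments are uncertain. MIR4453HG had 1.95, 2.43 and 1.91 FPKM in DMSO and 1.48, 1.41 and 1.74 FPKM in PD. The fall was -0.28 on the log2 scale with an adjusted p of 0.034 (limma), and the call was lost without DMSO replicate 2 (adjusted p = 0.105), PD replicate 1 (0.0864) or PD replicate 2 (0.102).

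MIR3677HG was the host that rose. It lies at chr16:2268155-2273418 on the plus strand and carries miR-3677 in an intron and miR-940 in an exon. It had 1.89, 2.13 and 2.68 FPKM in DMSO and 3.16, 3.32 and 3.13 FPKM in PD. All PD libraries were above all DMSO libraries, at 143% of the DMSO mean, and the log2 fold change was 0.38 (SE 0.09, adjusted p = 0.010 by limma). It rested on 32 to 45 fragments in a DMSO library and 50 to 57 in a PD library. Its start lies 242 bp from that of RNPS1, a splicing factor gene on the other strand that shares exon sequence with it. RNPS1 moved the other way, from 34.6 to 29.4 FPKM on average, with a log2 fold change of -0.23 and an adjusted p of 0.00086 (limma).

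**Figure D3:**
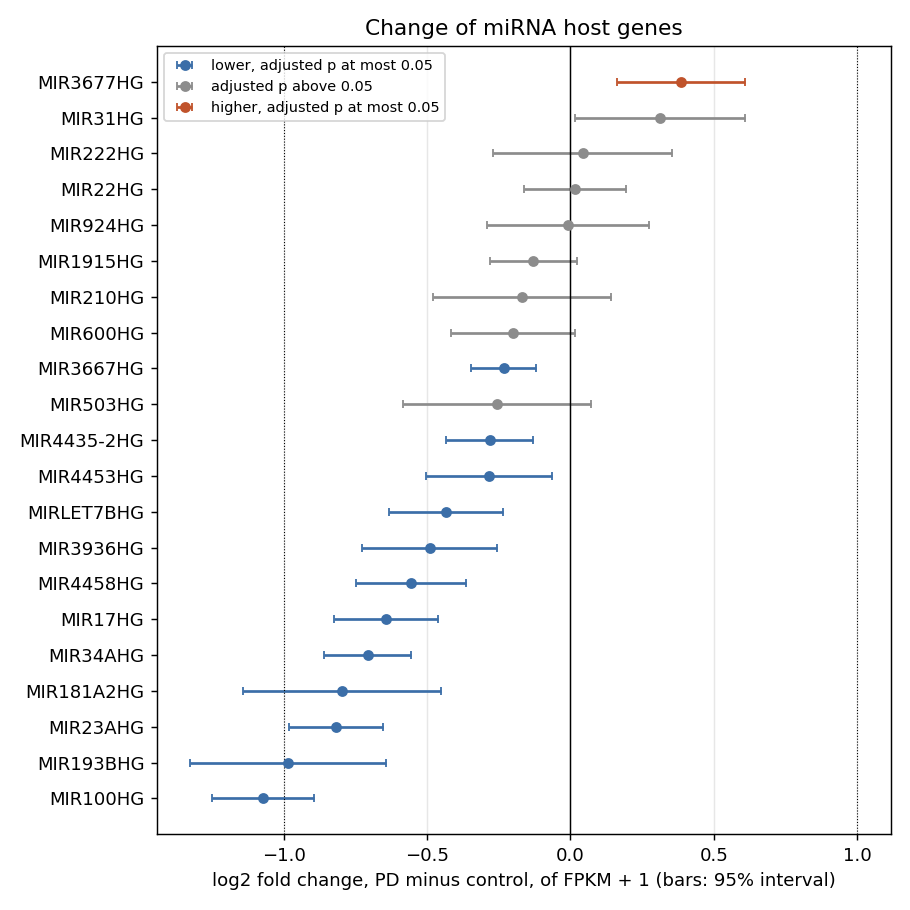
Log2 fold change (PD minus DMSO, on the scale of FPKM + 1) of the 21 host genes, with bars for the 95% interval, coloured by the limma call (adjusted p threshold 0.05). The 12 genes that fell run from MIR3667HG at -0.23 to MIR100HG at -1.07, and MIR3677HG lies at 0.38.

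For the other 8 hosts the difference between PD and DMSO did not pass the threshold, and their 95% intervals show which changes the data still allow. MIR22HG had 4.69, 3.98 and 3.80 FPKM in DMSO and 4.0, 4.34 and 4.25 FPKM in PD. The groups overlapped, and the log2 fold change of 0.02 had an interval from -0.16 to 0.19 and an adjusted p of 0.879 (limma), with a sign that turned under another scaling. WDR81, whose start lies 651 bp from that of MIR22HG on the other strand, rose from 5.63 to 7.66 FPKM on average, with a log2 fold change of 0.39 and an adjusted p of 0.001 (limma).

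MIR1915HG had 7.90, 7.96 and 6.81 FPKM in DMSO and 7.08, 6.78 and 6.58 FPKM in PD, a log2 fold change of -0.13 with an interval from -0.28 to 0.02 and an adjusted p of 0.129 (limma). Without DMSO replicate 3, the lowest of its group, the log2 fold change was -0.19 with an adjusted p of 0.0194 (limma). MIR503HG had 3.0, 2.51 and 2.56 FPKM in DMSO and 1.73, 1.79 and 2.86 FPKM in PD. The third PD library was within the DMSO range and the other PD libraries were well below it, so the log2 fold change was -0.26 with an interval from -0.58 to 0.07 and an adjusted p of 0.157 (limma). Without PD replicate 3 it was -0.42 with an adjusted p of 0.00881 (limma).

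MIR600HG had 1.01, 0.917 and 1.01 FPKM in DMSO and 0.823, 0.753 and 0.594 FPKM in PD. The groups did not overlap, but the log2 fold change of -0.20 had an interval from -0.42 to 0.02 and an adjusted p of 0.101 (limma), whereas voom on 58 to 104 fragments gave -0.43 with an adjusted p of 0.025 (limma). It shares exon sequence on its own strand with STRBP, which had 13.5 and 13.2 FPKM on average and an adjusted p of 0.613 (limma). MIR31HG, the host of miR-31, had 0.466, 0.641 and 0.549 FPKM in DMSO and 0.891, 0.689 and 1.23 FPKM in PD. All PD libraries were higher, at 170% of the DMSO mean, but with 6 to 8 fragments in a DMSO library and 9 to 15 in a PD library the log2 fold change was 0.31 with an adjusted p of 0.0666 (limma). Without PD replicate 2, the lowest of its group, it was 0.41 with an adjusted p of 0.0349 (limma).

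MIR924HG had 1.79, 1.14 and 1.68 FPKM in DMSO and 1.45, 1.35 and 1.72 FPKM in PD, with an interval from -0.29 to 0.27. MIR210HG, the host of miR-210, a miRNA known for its rise under low oxygen, had 1.02, 0.694 and 0.680 FPKM in DMSO and 0.524, 0.836 and 0.449 FPKM in PD, with an interval from -0.48 to 0.14. MIR222HG, which carries miR-221 and miR-222 with their shared seed GCUACAU, had 0.540, 0.535 and 0.399 FPKM in DMSO and 0.298, 0.635 and 0.705 FPKM in PD, with an interval from -0.27 to 0.36. The groups of all 3 overlapped, and the intervals leave room for changes of either sign.

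Hosts were also grouped by their hairpins, as a description. Of the 9 tested hosts with more than 1 miRNA gene in GENCODE 44, 6 fell, 1 rose and 2 did not pass the test, and of the 12 with 1 miRNA gene 6 fell and 6 did not pass. Among the 9 hosts with miRNA genes in exons alone 7 fell, and among the 8 with miRNA genes in introns alone 4 fell. Beside these counts, 26.2% of all tested genes and 29.4% of the lncRNA genes fell. The groups are small, and no difference between them was tested.

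The remaining low hosts add little. Of the 28 hosts under 0.5 FPKM the highest mean was 0.463 FPKM, 18 had means under 0.1 FPKM, and 19 had at most 10 fragments over all 6 libraries. The PD libraries were below the DMSO libraries without overlap for 4 of the 28, above them for 2, and overlapped for 22. Over all 14163 genes under 0.5 FPKM, PD was below in 8.52% and above in 5.77%. Besides the let-7 hosts, MIR29B2CHG, which carries miR-29b-2 and miR-29c in its exons, was the other of these 4, with 0.395, 0.352 and 0.413 FPKM in DMSO and 0.158, 0.202 and 0.258 FPKM in PD. MIR762HG had 0.542, 0.0986 and 0.451 FPKM in DMSO and 0.427, 0.283 and 0.270 FPKM in PD, with overlap. MIR122HG, the host of the abundant hepatocyte miRNA miR-122, had 1 fragment in the 6 libraries together, and MIR194-2HG, the host of the liver and gut miRNAs miR-192 and miR-194, had 4 or 5 fragments in each.

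Some hairpins have rows of their own in the table, which hold fragments of longer RNA and not mature miRNAs, since poly(A) RNA was taken. MIR3936, inside MIR3936HG, had 15.8, 17.4 and 20.7 FPKM in DMSO and 7.04, 8.30 and 6.69 FPKM in PD. It lies in an exon of its host and is not a separate observation. Its log2 fold change was -1.18 with an adjusted p of 8.49e-05 (limma), from 30 to 39 fragments in a DMSO library and 12 to 16 in a PD library. The hairpin row kept 40.9% of its DMSO mean and the host 61.8%. MIRLET7D, inside MIRLET7A1HG, had 18, 13 and 14 fragments in DMSO and 10, 10 and 9 in PD, again without overlap. These outnumbered the fragments of the host, 9, 8 and 6 in DMSO and 2, 6 and 3 in PD, so their source is uncertain. The other hairpin rows had 0 to 11 fragments in a library. The genes that overlap a host or start within 5 kb of it numbered 62 in the table, hairpins included. Of these 22 could be tested, of which 8 fell, 2 rose and 12 did not pass (limma), where 58.1% of all tested genes were called, 26.2% lower and 31.9% higher. Besides RNPS1 and MIR3936, those that fell were the hairpin MIR1915 (-0.36) in MIR1915HG and the unnamed genes ENSG00000227992 (-0.91) and ENSG00000230499 (-0.48) inside the span of MIR4435-2HG. The rest were SLC22A4 (-0.22), which overlaps MIR3936HG on the other strand, the pseudogene RPL7AP66 (-0.34) inside MIR924HG and NR6A1 (-0.32) across MIR181A2HG. Each value is a log2 fold change. MIR1915 rested on 6 to 8 fragments in a DMSO library and 4 to 6 in a PD library, too few for voom. ENSG00000230499 and RPL7AP66 did not pass by voom (adjusted p = 0.0873 and 0.102, limma), while the others that fell did. On log2(FPKM + 1) NR6A1 passed narrowly, with an adjusted p of 0.0499 (limma). The hairpins MIR23A, MIR3677, MIR503, MIR365A and MIR125B1 and the genes LINC00629 and ENSG00000279075 did not pass. The 2 that rose were WDR81 and BCL2L11, a gene of cell death that overlaps MIR4435-2HG on the other strand and went from 6.02 to 9.60 FPKM on average while its neighbour fell. FBXW7, which starts 172 bp from MIR4453HG on the other strand, had 1.10 FPKM in DMSO and 1.09 FPKM in PD. SLC22A5 overlaps MIR3936HG on the other strand, with starts 460 bp apart. It had 3.16 and 2.88 FPKM with an adjusted p of 0.181 (limma).

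The mRNAs of the proteins that turn host transcripts into miRNAs were looked at beside the hosts, while the proteins were not measured. Of 28 listed genes of miRNA processing and action, 26 could be tested, of which 17 fell, 2 rose and 7 did not pass, where 26.2% of all tested genes fell and 31.9% rose. None reached 2-fold, and the median log2 fold change was -0.21 against 0.01 over all tested genes. Of the core processing genes, DROSHA went from 28.9 to 24.9 FPKM on average (-0.21, adjusted p = 0.0029), DGCR8 from 13.7 to 10.7 FPKM (-0.33, adjusted p = 0.00044), XPO5 from 24.2 to 19.4 FPKM (-0.30, adjusted p = 0.00077) and DICER1 from 8.57 to 6.38 FPKM (-0.37, adjusted p = 0.00031), all by limma. The largest falls were in mRNAs of RNA-binding proteins that also act in splicing. HNRNPA1 had 243, 235 and 234 FPKM in DMSO and 147, 145 and 136 FPKM in PD (-0.73, adjusted p = 6.92e-06, limma). HNRNPA2B1 had 134, 136 and 131 against 82.8, 79.3 and 80.8 FPKM (-0.72, adjusted p = 3.85e-06, limma). DDX5, a helicase that works with DROSHA, fell from 88.9 to 57.7 FPKM on average (-0.62, adjusted p = 5.55e-06, limma).

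The Argonautes moved in different directions. AGO2, which can cut its targets, had 19.4, 21.7 and 19.3 FPKM in DMSO and 14.5, 13.6 and 13.4 FPKM in PD, a log2 fold change of -0.51 with an adjusted p of 0.00021 (limma). AGO1 had 4.03, 4.09 and 4.22 FPKM in DMSO and 6.79, 6.44 and 6.64 FPKM in PD, a log2 fold change of 0.58 with an adjusted p of 5.05e-05 (limma). AGO4 fell by 0.18 on the log2 scale with an adjusted p of 0.0311 (limma), and AGO3 had 1.71 and 1.85 FPKM on average with an adjusted p of 0.417 (limma). The other gene of the list that rose was PRKRA, a partner of DICER1, from 6.93 to 9.38 FPKM on average (0.39, adjusted p = 0.00053, limma). Whether these changes had a part in the levels of the hosts was not tested.

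**Figure D4:**
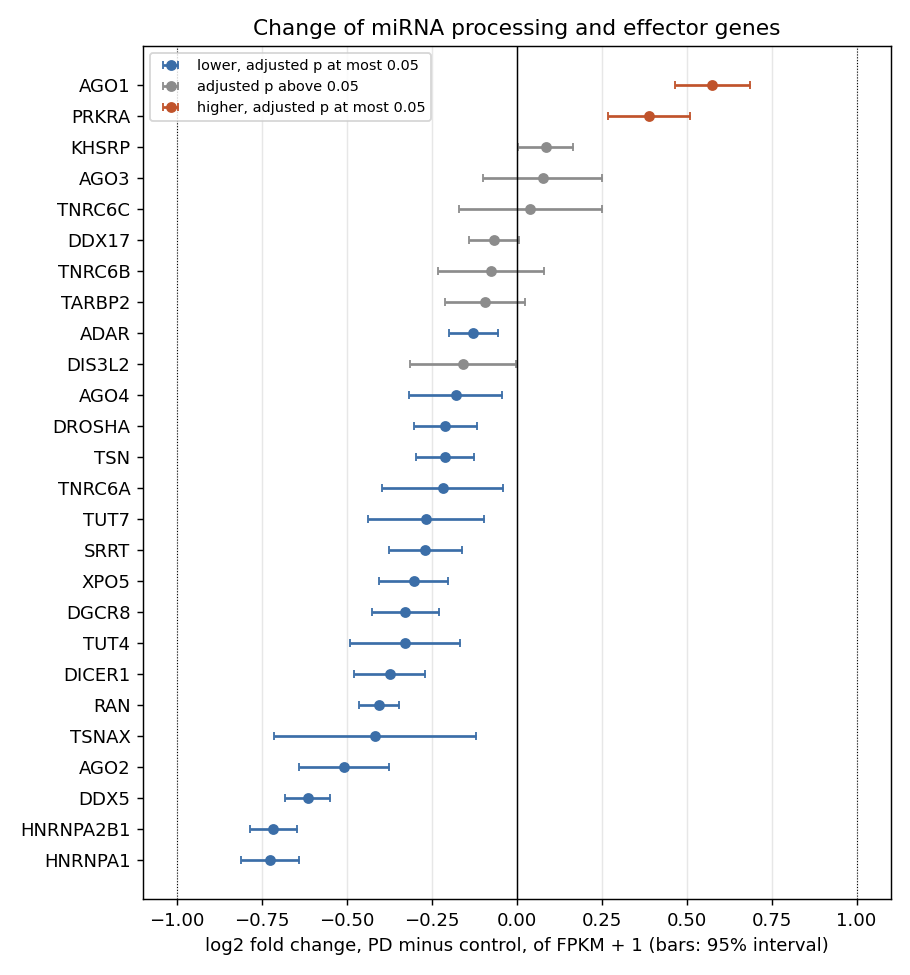
Log2 fold change (PD minus DMSO, on the scale of FPKM + 1) of the 26 tested genes of miRNA processing and action, with bars for the 95% interval, coloured by the limma call (adjusted p threshold 0.05). AGO1 and PRKRA rose, 17 genes fell, and all lie between the dotted lines at 2-fold.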

How the data were processed

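The authors prepared poly(A) libraries with a kit that does not mark strand (NEBNext Ultra), aligned the reads to hg38 with HISAT2, counted with HTSeq 0.6.0, and deposited FPKM for 28563 genes in 6 libraries; strand setting and gene annotation are not given in the sources used here. The gene lengths implied by the FPKM differ from GENCODE 44 for 18 of the 21 tested hosts, so the exons counted may differ from those described. Symbols were found for 28161 identifiers. Genes averaging 0.5 FPKM or more were tested as log2(FPKM + 1) with limma 3.58.1 in R 4.3.3, with a trended prior variance, no covariates and Benjamini-Hochberg adjustment. Whole fragments (within 0.001) were worked back from the FPKM, and voom was run on genes with at least 10 fragments in 3 or more libraries. Scripts were tested on simulated data. Libraries of a group were no duplicates, with a chi-square per gene of 2.22 to 3.55 within groups and 47.2 to 55.0 between them. The hosts and gene lists were chosen with earlier results of these data known. Named were all hosts of at least 0.5 FPKM, the 5 highest below it, regulators, tested neighbours, and of each other list the 4 largest changes that passed and any at 2-fold. MIR4500HG, MIR122HG, MIR194-2HG, MIRLET7D, DROSHA, DGCR8, XPO5, DICER1, AGO4, AGO3, PRKRA and the cell type markers were named after their values were seen, and some listed genes are not reported here. The alternatives tried were other pseudocounts, filters and scalings, voom, the replicate block, no trend in the prior, a test beyond 2-fold, and leaving out each library.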

Additional observations from a re-analysis of the deposited data

How the results depend on the processing

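Of the 13 hosts that passed the threshold, 12 kept their call and direction under every alternative run on them apart from the test beyond 2-fold, and MIR4453HG lost it without the filter (adjusted p = 0.0963, limma), with the replicate block (0.07, limma) and without any 1 of 3 libraries. The replicate numbers did not pair the samples, since same-numbered libraries correlated at -0.027, -0.0046 and 0.0898, and the block left 11 hosts lower and 1 higher, with 8032 genes called in all. Hosts called at 2-fold or more numbered 4 with a pseudocount of 0.1 or 0.01, 2 with upper quartile or median-of-ratios scaling, 6 with voom and 0 in the limma test beyond 2-fold (0 at an unadjusted p under 0.05), and 1 to 2 when a library was left out (2 without DMSO or PD replicate 2); over all genes there were 1248 with a pseudocount of 0.1, 1358 with 0.01, 1735 with voom and 101 beyond 2-fold, against 520. A second host, beside MIR3677HG, was called higher without the filter and without the trend (2 each), and leaving out a library gave 1 to 2. MIR22HG turned to -0.0224 and -0.0131 on the log2 scale under upper quartile and median-of-ratios scaling. Leave-outs ranged from -0.0347 to 0.0885 for MIR22HG, from -0.127 to 0.065 for MIR924HG and from -0.0326 to 0.164 for MIR222HG. The other noncoding hosts called ranged from 1 to 2 (1 without DMSO or PD replicate 1). Except where a setting leaves fewer samples, the cause was not tested. At 2 to 5 fragments per library, as for MIR181A2HG in PD, depth limits the size of a change.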

Other observations

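Many miRNAs lie inside protein-coding genes, and these hosts did not move in 1 direction. Of 41 listed, 32 could be tested, of which 12 rose, 11 fell and 9 did not pass, where 31.9% of all tested genes rose and 26.2% fell, with a median log2 fold change of -0.06 (limma). TLN2, which encodes a talin and hosts miR-190a, had 0.528, 0.559 and 0.523 FPKM in DMSO and 2.62, 2.64 and 2.68 FPKM in PD, a log2 fold change of 1.25 with an adjusted p of 1.06e-05 (limma). CLCN5, a chloride transporter gene and the host of the miR-188 and miR-532 cluster, had 1.70, 1.77 and 1.55 FPKM in DMSO and 5.20, 4.51 and 4.94 FPKM in PD, a log2 fold change of 1.14 with an adjusted p of 1.47e-05 (limma). These were the members of the list called at 2-fold or more. EGFL7, the host of miR-126, rose from 12.4 to 23.6 FPKM on average (0.88, adjusted p = 1.22e-05, limma), and LPP, the host of miR-28, fell from 11.0 to 5.86 FPKM (-0.80, adjusted p = 4.56e-05, limma).

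Of 7 noncoding hosts with other names, 2 could be tested and both fell, where 26.2% of all tested genes and 29.4% of the lncRNA genes fell. PVT1 had 5.24, 5.99 and 5.37 FPKM in DMSO and 2.87, 3.0 and 2.92 FPKM in PD, a log2 fold change of -0.73 with an adjusted p of 5.57e-05 (limma). H19, the imprinted host of miR-675, had 20.6, 18.4 and 21.3 FPKM in DMSO and 15.9, 17.1 and 17.8 FPKM in PD, a log2 fold change of -0.24 with an adjusted p of 0.0157 (limma). Regulators known to act on miRNA hosts moved in either direction (limma). Besides MYC, those that fell included HIF1A (-0.60), NFKB1 (-0.66), SMAD3 (-0.45) and E2F3 (-0.29), and those that rose were EGR1 (1.14), E2F1 (0.43), EPAS1 (0.13) and RELA (0.11, adjusted p = 0.0496, limma), each value a log2 fold change. MYCN was at most 0.0449 FPKM in any library. Their part in the levels of the hosts was not tested.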
